A study of Homo sapiens with 12 samples.

Results

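Receptors of the ERBB family, the EGF-like ligands that activate them and their inhibitor ERRFI1 were followed in SK-OV-3, an established human ovarian cancer cell line. Members were chosen by name, with earlier results of these data known: ERBB2, ERBB3, EGFR, NRG1, AREG, EREG, HBEGF, TGFA, BTC and ERRFI1. Of these 10 genes, 9 had a named probe set on the array, and all 9 were among 12674 genes tested. They had 35 probe sets out of 54613, of which 24 passed a filter on dim values, a mean signal above 69.8, which is the median of all probe sets. AREG was not analysed here, because no probe set carried its name in the probe table used.

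The cells were kept for 24 h in 4 groups of 3 cultures: PBS as the control, 100 ng/ml of recombinant BMP2, 5 µM of DM, or both reagents at those doses. The labels do not spell out the name DM. Each culture gave RNA to 1 Affymetrix array, and the values are MAS5 signals on a linear scale. All cultures are of 1 line, so p-values measure the spread between its cultures.

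ERBB receptors are tyrosine kinases of the cell surface that signal in pairs. EGFR binds ligands such as TGF-alpha and heparin-binding EGF, ERBB3 binds neuregulins and has little kinase activity of its own, and ERBB2 has no known ligand and partners the others. Most of the ligands are made as membrane proteins and are cut free by ADAM proteases, and the receptors signal through the RAS-ERK and PI3K-AKT routes. SK-OV-3 is widely used as a line with ERBB2 amplification.

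Of 6 genes that BMP signalling is known to induce (ID1 to ID4, SMAD6 and SMAD7), 5 rose with BMP2 and 5 fell with DM against PBS. The median signal of an array ran from 86.7 to 112, highest in BMP2 replicate 1, and its mean correlation with the arrays of its group from 0.842 to 0.877, lowest in the same array. All 8 epithelial and Müllerian markers passed the filter, with a summed signal of 39118 to 46736 over the arrays. Of these KRT19 rose by 0.34 ± 0.09 in BMP2+DM against BMP2 and by 0.31 ± 0.09 in DM against BMP2. CD24 rose by 0.68 ± 0.09 in BMP2 against PBS and fell by 0.37 ± 0.09 in DM against PBS, 1.38 ± 0.09 in BMP2+DM against BMP2, 0.70 ± 0.09 in BMP2+DM against PBS and 1.05 ± 0.09 in DM against BMP2, and its interaction was called too (-1.01 ± 0.13). Their part in the results below was not tested. Among markers of other cells, 1 of 8 for endothelium (sum 304 to 1083), 2 of 8 for fibroblasts (497 to 1113), 2 of the 6 named for leukocytes (317 to 656) and 4 of 6 for mesothelium (1181 to 2129.8) passed, and limma called none of these 9 in any comparison. In RNA of whole cultures, fewer cells with a transcript and less transcript per cell cannot be told apart.

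The inhibitor gene ERRFI1 was lower with BMP2 and with DM than with PBS. Over 24 alternatives, omissions of single arrays among them, its call with BMP2 was lost in 16 and that with DM in 4. The ligand genes HBEGF and TGFA and the receptor gene ERBB2 were higher with BMP2 and DM together than with BMP2 alone. The ligand gene NRG1 was lower with DM by 1 of its 6 probe sets, and the other one above the filter did not show this. Its mean with DM was under the filter, which it passed through the other groups. NRG1 is counted among the falls with DM given next. In BMP2 against PBS, 1 of 9 members fell (0.631% of all genes were called either way and 0.308% lower). In DM against PBS 2 fell (3.57% and 1.71% of all genes), and in BMP2+DM against BMP2 3 rose (7.25% either way and 4.08% higher). In BMP2+DM against PBS 1 rose (4.09% and 2.41%). In DM against BMP2 1 rose and 1 fell (6.57% either way, 3.27% higher and 3.3% lower).

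None of the 9 was called by limma in BMP2+DM against DM (0.0473% of all genes), where 2 had an unadjusted p under 0.05. None was called for the interaction either (0.118% of all genes), the effect of BMP2 in cells given DM less its effect in cells without. There 4 members had an unadjusted p under 0.05. Shares of all genes, above and below, count calls at an adjusted p. The share of all genes at an unadjusted p under 0.05 was not counted, so counts at that threshold have no background here. The median log2 change of the members was -0.34 in BMP2 against PBS, 0.26 in DM against PBS and 0.41 in BMP2+DM against BMP2. For all genes it was 0.03, 0.02 and 0.03. In BMP2+DM the median of the members was 0.08 against DM (all genes 0.04) and -0.01 against PBS (all genes 0.05). It was 0.38 in DM against BMP2 (all genes -0.001) and 0.23 for the interaction (all genes 0.01). These medians pool receptors, ligands and the inhibitor. Because earlier results were known when the members were chosen, their counts and medians are a description and not a test. Differences below are log2 changes ± the standard error of the limma fit, with 3 arrays a group, and p-values are adjusted over all genes by the Benjamini-Hochberg method. Comparisons that share a group share its arrays.

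**Figure D1:**
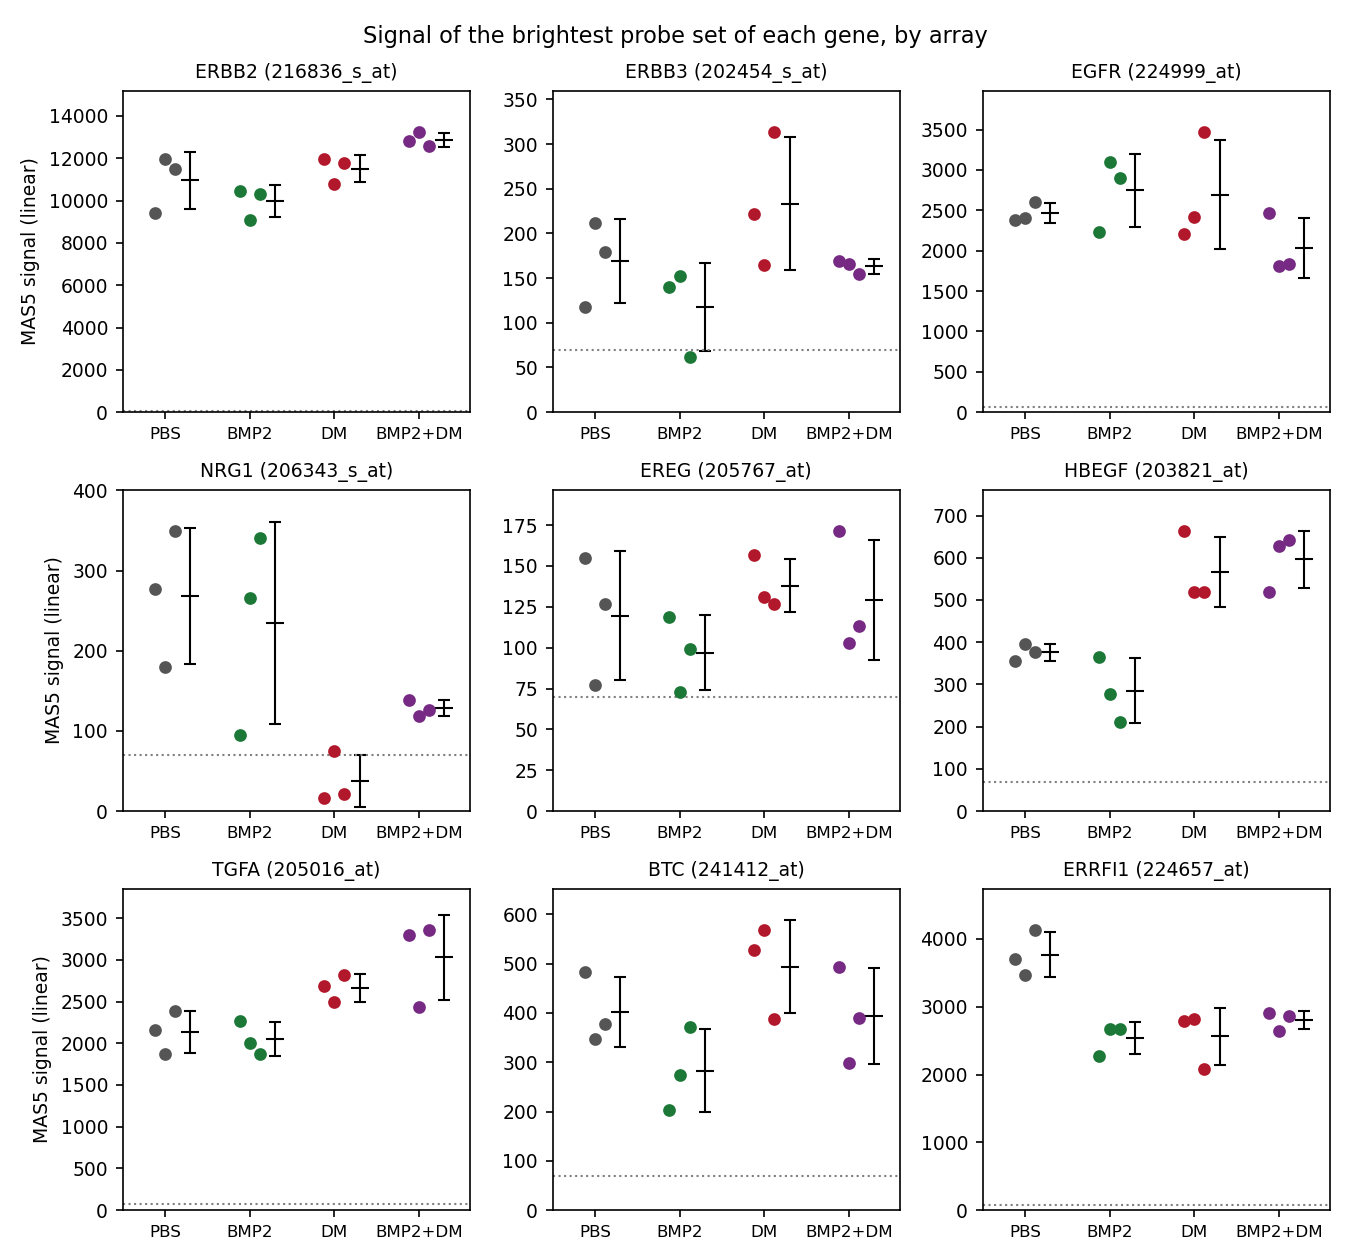
MAS5 signal (linear axis from 0) of the brightest probe set of each of the 9 genes, 1 point per array, with mean and SD of 3 arrays, in the 4 groups; the dotted line is the filter at 69.8. The 3 PBS arrays of ERRFI1 lie above the 9 others, and for HBEGF and TGFA the 6 arrays with DM lie above the 6 without.

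HBEGF, TGFA and ERRFI1 are shown first by the sequence at their start sites, since the ligands had their higher arrays in the groups with DM and ERRFI1 had its lower arrays in the treated groups. RefSeq windows (GRCh38.p14, 250 bases before to 50 after the start) were found for 8 of the 10 genes. The windows, all on the minus strand, are chr5:140346554-140346853 for HBEGF, chr2:70553777-70554076 for TGFA (the first of 2 entries) and chr1:8026260-8026559 for ERRFI1. Capitals mark matches on either strand to GGCGCC (bound by BMP SMADs), CAGAC (the SMAD box), TGANTCA (AP-1), TGACG (a CRE core), GGGCGG (bound by SP factors), CCAAT (bound by nuclear factor Y), TATANA (TATA-like) and CCGGAAG (ETS).
HBEGF: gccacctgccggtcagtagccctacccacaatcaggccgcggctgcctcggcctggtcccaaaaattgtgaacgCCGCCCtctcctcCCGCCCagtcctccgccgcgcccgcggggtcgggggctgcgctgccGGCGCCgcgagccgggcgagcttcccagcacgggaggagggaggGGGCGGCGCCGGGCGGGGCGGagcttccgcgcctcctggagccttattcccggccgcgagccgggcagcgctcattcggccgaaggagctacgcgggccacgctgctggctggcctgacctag
TGFA: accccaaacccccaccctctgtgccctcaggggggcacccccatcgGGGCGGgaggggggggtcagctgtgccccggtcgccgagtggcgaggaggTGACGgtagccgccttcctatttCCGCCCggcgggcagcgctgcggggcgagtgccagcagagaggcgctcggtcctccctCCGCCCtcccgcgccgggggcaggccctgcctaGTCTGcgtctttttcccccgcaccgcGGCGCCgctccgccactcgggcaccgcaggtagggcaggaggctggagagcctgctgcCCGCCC
ERRFI1: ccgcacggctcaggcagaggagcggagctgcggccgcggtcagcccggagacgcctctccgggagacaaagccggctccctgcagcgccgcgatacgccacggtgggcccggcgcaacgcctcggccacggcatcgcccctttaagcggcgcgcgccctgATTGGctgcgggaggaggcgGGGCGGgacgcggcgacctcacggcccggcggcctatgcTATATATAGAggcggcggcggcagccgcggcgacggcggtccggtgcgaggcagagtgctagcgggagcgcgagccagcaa
The HBEGF window held 2 matches to GGCGCC and 5 to GGGCGG, of which 1 overlaps a GGCGCC match. TGFA held 1 GGCGCC, 1 CAGAC, 1 TGACG and 4 GGGCGG matches. ERRFI1 held 1 GGGCGG, 1 CCAAT and 3 overlapping TATANA matches, which begin at -31, -29 and -27 from the start. Among windows not printed, those of ERBB2, EGFR (entries 1 and 2), EREG and BTC held 0 GGCGCC matches. That of AREG held 1, as did the second TGFA entry. ERBB2, called higher in BMP2+DM against BMP2 like HBEGF and TGFA, also held 0 CAGAC matches. Whether matches go with the response was not tested. Of 35116 RefSeq windows of this length, 19.2% held GGCGCC, 45.3% CAGAC, 7.71% TGANTCA, 24.6% TGACG, 45% GGGCGG, 34.6% CCAAT, 19% TATANA and 10.3% CCGGAAG. A match describes letters, and binding was not measured.

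Among the receptors, ERBB2 was highest with both reagents. The signal of its brightest probe set, 216836_s_at, was 9412, 11966 and 11487 with PBS, 10463, 9099.9 and 10327 with BMP2, 11979.9, 10770.4 and 11759.5 with DM, and 12801, 13217 and 12556 with both. The arrays with both reagents lay above the 9 others, DM arrays lay above BMP2 arrays, and PBS arrays overlapped both. ERBB2 rose by 0.37 ± 0.09 (1.29-fold, adjusted p = 0.0232, limma) in BMP2+DM against BMP2, from a mean of 9963 ± 751 (SD, n = 3) to 12858 ± 334. Against PBS the values were 0.24 ± 0.09 with both (adjusted p = 0.175), -0.13 ± 0.09 with BMP2 and 0.08 ± 0.09 with DM. No neighbours in the order BMP2, PBS, DM, BMP2+DM differed beyond the threshold.

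The ERBB2 call was lost without BMP2 replicate 2 (adjusted p = 0.0803, limma), without BMP2+DM replicate 1, 2 or 3 (0.0625, 0.0886 and 0.0558), on averaging its probe sets and without an intensity trend. Over 24 alternatives the adjusted p ran from 0.0102 to 0.134. The dimmer 234354_x_at had means of 313 ± 31.2 (SD, n = 3) with PBS, 305 ± 58.7 with BMP2, 401 ± 63.8 with DM and 512 ± 40.9 with both, and in the fit on all probe sets 0.77 ± 0.23 in BMP2+DM against BMP2 (adjusted p = 0.0656). Probe set 210930_s_at ranged from 407 to 1139 and had 0.20 ± 0.30 there (adjusted p = 0.785).

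EGFR gave different values by probe set. The brightest, 224999_at, had 2379.6, 2408 and 2607 with PBS, 2234, 3099 and 2905 with BMP2, 2207, 2415 and 3464 with DM, and 2467, 1807 and 1838 with both. All groups overlapped. It was not called, at -0.43 ± 0.16 in BMP2+DM against BMP2 (adjusted p = 0.126, limma) and -0.39 ± 0.16 in BMP2+DM against DM (adjusted p = 0.504). From lowest to highest the groups ran BMP2+DM, PBS, DM, BMP2, with no call between neighbours.

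The second EGFR probe set, 201983_s_at, had its highest mean with DM. It had 1213, 1262 and 965 with PBS, 1193, 1248 and 1452 with BMP2, 1625, 1672 and 2199 with DM, and 981, 702 and 555 with both. The DM arrays lay above all others, and the arrays with both reagents lay below those with BMP2 or DM alone. PBS arrays overlapped those with BMP2 and those with both reagents. In the fit on 23284 probe sets it fell by 1.32 ± 0.19 on the log2 scale in BMP2+DM against DM (2.50-fold, adjusted p = 0.0134, limma), where 0.0558% of probe sets were called. In BMP2+DM against BMP2 it fell by 0.83 ± 0.19 (1.78-fold, adjusted p = 0.0176), where 4.8% were. DM against PBS, at 0.67 ± 0.19 (adjusted p = 0.0821, limma), and DM against BMP2, at 0.49 ± 0.19 (adjusted p = 0.179), were not called. Nor was the interaction, at -1.50 ± 0.27 (adjusted p = 0.0605).

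Among alternatives added after seeing the data, the fall of 201983_s_at against DM lost its call without DM replicate 3 (adjusted p = 0.0841, limma), without BMP2+DM replicate 2 or 3 (0.0854 and 0.0748) and without an intensity trend (0.223). Its fall against BMP2 lost it without BMP2 replicate 3 (0.0759), without BMP2+DM replicate 2 or 3 (0.0671 and 0.0918), with median centring and without a trend. The other 4 EGFR probe sets above the filter were not called in any comparison. Of these 201984_s_at had means of 911 ± 129 (SD, n = 3) with PBS, 779 ± 126 with BMP2, 774 ± 184 with DM and 682 ± 141 with both, and -0.17 ± 0.21 in BMP2+DM against DM. Whether the EGFR probe sets differ in response was not tested.

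**Figure D2:**
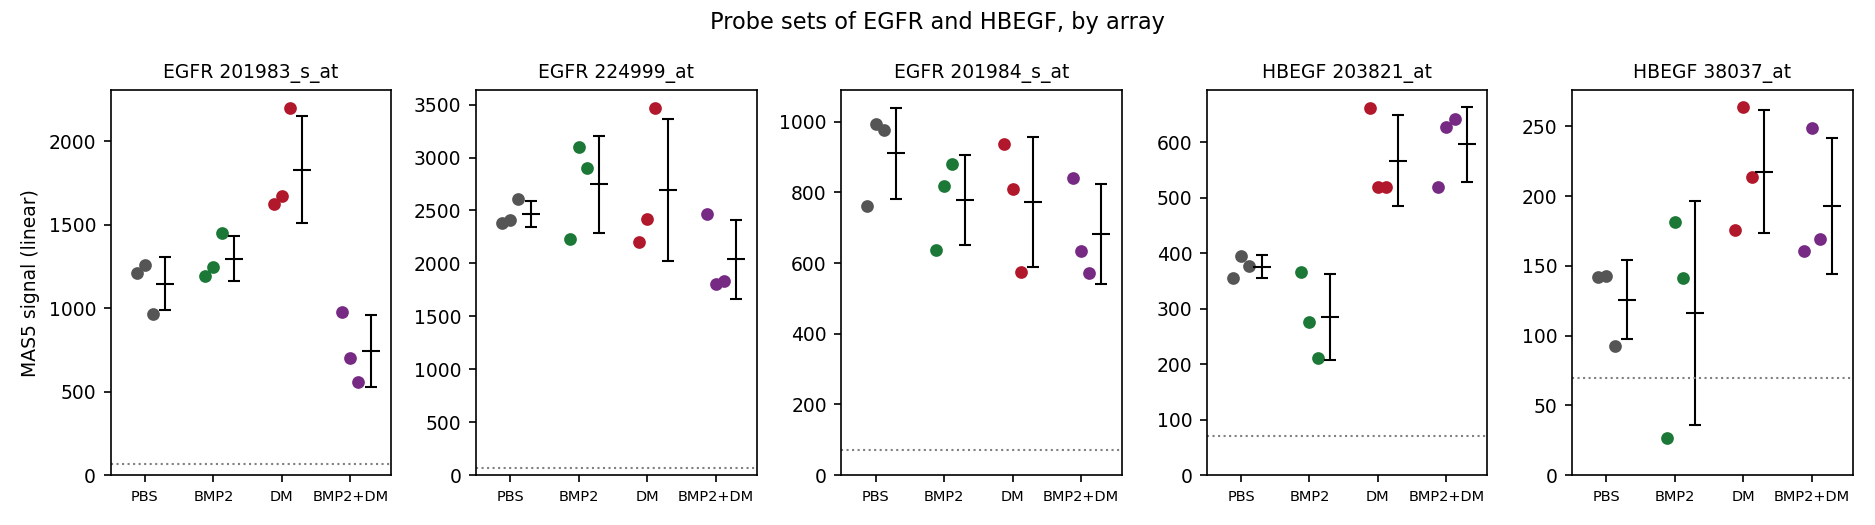
MAS5 signal (linear axis from 0) by array for 3 EGFR and 2 HBEGF probe sets in the 4 groups, with mean and SD of 3 arrays and the filter at 69.8 as a dotted line. EGFR 201983_s_at is highest with DM and lowest with both reagents, 224999_at overlaps between all groups, and both HBEGF probe sets have higher means in the groups with DM.

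ERBB3, the neuregulin receptor, had a dimmer signal. Its brightest probe set, 202454_s_at, had 118, 211 and 179 with PBS, 141, 152 and 61.6 with BMP2, 222, 165 and 313 with DM, and 169, 166 and 154 with both. DM arrays and arrays with both reagents lay above the BMP2 arrays. DM against BMP2 had 1.04 ± 0.44 (95% confidence interval 0.12 to 1.96, adjusted p = 0.185, limma), while 226213_at had 1.12 ± 0.44 there (adjusted p = 0.187), 215638_at 0.77 ± 0.80 and 1563253_s_at, with the opposite sign, -1.33 ± 0.65 (adjusted p = 0.304). In BMP2 against PBS the probe sets disagreed in sign too, from -1.02 for 215638_at to 2.61 for 1563253_s_at, and none was called. No neighbours in the order BMP2, BMP2+DM, PBS, DM differed beyond the threshold.

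Among the ligands, HBEGF encodes heparin-binding EGF, which binds EGFR and ERBB4. Its brightest probe set, 203821_at, had 354, 395 and 378 with PBS, 365, 277 and 212 with BMP2, 662, 518 and 520.0 with DM, and 519, 628 and 641 with both. All 6 arrays with DM lay above the 6 without it, while PBS and BMP2 overlapped. HBEGF rose by 1.09 ± 0.22 (2.14-fold, adjusted p = 0.00592, limma) in BMP2+DM against BMP2, and in DM against BMP2 by 1.02 ± 0.22 (2.03-fold, adjusted p = 0.00933). Against PBS it had 0.59 ± 0.22 with DM (adjusted p = 0.183), 0.66 ± 0.22 with both (adjusted p = 0.107) and -0.43 ± 0.22 with BMP2 (adjusted p = 0.518). From lowest to highest the groups ran BMP2, PBS, DM, BMP2+DM, with no call between neighbours.

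The other HBEGF probe set above the filter, 38037_at, had means of 126 ± 28.5 (SD, n = 3) with PBS, 116 ± 80.5 with BMP2, 218 ± 44.3 with DM and 193 ± 48.6 with both. Its values had the same sign as those of 203821_at in both comparisons, at 1.11 ± 0.58 in BMP2+DM against BMP2 (adjusted p = 0.325, limma) and 1.29 ± 0.58 in DM against BMP2 (adjusted p = 0.257). BMP2 replicate 1 read 26.4 there. With the mean of 4 probe sets, 2 of them below the filter, HBEGF had 0.51 and 0.46 (adjusted p = 0.612 and 0.684). The call in DM against BMP2 was also lost without DM replicate 1 (adjusted p = 0.0551).

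TGFA encodes TGF-alpha, a ligand of EGFR. Its brightest probe set, 205016_at, had 2155, 1868 and 2381 with PBS, 2269, 2008 and 1869 with BMP2, 2683, 2489.8 and 2823 with DM, and 3298, 2439.9 and 3352 with both. The 6 arrays with DM lay above the 6 without it, and BMP2+DM replicate 2 was the lowest of them. TGFA rose by 0.55 ± 0.13 (1.47-fold, adjusted p = 0.0152, limma) in BMP2+DM against BMP2 and by 0.50 ± 0.13 (1.41-fold, adjusted p = 0.0408) in BMP2+DM against PBS. DM alone gave 0.33 ± 0.13 against PBS (adjusted p = 0.219) and BMP2 alone -0.06 ± 0.13 (adjusted p = 0.929). No neighbours in the order BMP2, PBS, DM, BMP2+DM differed beyond the threshold.

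The TGFA call against PBS was lost in 12 of 24 alternatives, among them the omission of PBS replicate 1 or 2, DM replicate 1 or 2, or BMP2+DM replicate 1 or 3, with adjusted p from 0.0126 to 0.911 by limma. That against BMP2 was lost in 5, among them the omission of BMP2 replicate 3 (0.0685) or BMP2+DM replicate 1 or 3 (0.072 and 0.0795). The dimmer TGFA probe sets, 211258_s_at (17.1 to 357) and 205015_s_at (8.95 to 304), were not called. In BMP2+DM against BMP2 they had 1.60 ± 0.63 and 0.31 ± 1.23, and in BMP2+DM against PBS -0.30 ± 0.63, opposite in sign to 205016_at, and 0.31 ± 1.23.

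NRG1 encodes neuregulin 1, which binds ERBB3 and ERBB4. Its brightest probe set, 206343_s_at, had 278, 179.9 and 349 with PBS, 95.3, 266 and 341 with BMP2, 16.4, 74.9 and 21.2 with DM, and 139, 119 and 126 with both. The DM arrays lay below all others, BMP2 arrays overlapped those with PBS and those with both reagents, and the mean with DM, 37.5 ± 32.4 (SD, n = 3), was under the filter, so no fold is given. NRG1 fell in DM against PBS (adjusted p = 0.00764, limma) and in DM against BMP2 (adjusted p = 0.0102), and BMP2+DM against DM was not called (adjusted p = 0.276). From lowest to highest the groups ran DM, BMP2+DM, BMP2, PBS, with no call between neighbours.

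The NRG1 calls rest on 1 of 6 probe sets. The only other one above the filter, 208232_x_at, had means of 119 ± 39.6 (SD, n = 3) with PBS, 136 ± 33.0 with BMP2, 119.8 ± 46.3 with DM and 44.8 ± 52.6 with both, with -0.02 ± 0.78 in DM against PBS (adjusted p = 0.996, limma). With the mean of the 6 the values were -0.26 in DM against PBS and -0.06 in DM against BMP2. With only the compared groups in the fit 208232_x_at became the brightest and stood for NRG1, and neither comparison was called. With 206343_s_at kept in that fit, an alternative added after seeing the data, NRG1 was called in DM against PBS (adjusted p = 0.0297) and not in DM against BMP2 (0.0927). The calls were also lost without PBS replicate 3 (adjusted p = 0.0515) or BMP2 replicate 3 (0.0612).

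BTC and EREG encode betacellulin and epiregulin, ligands of EGFR and ERBB4. EPGN, EREG, AREG and BTC follow each other among the protein-coding genes of chromosome 4 in RefSeq. BTC probe set 241412_at had 482, 346 and 378 with PBS, 203, 274 and 372 with BMP2, 527, 567 and 387 with DM, and 493, 298 and 389.7 with both. Only the DM and BMP2 arrays did not overlap, and DM against BMP2 had 0.83 ± 0.27 (95% confidence interval 0.25 to 1.40, adjusted p = 0.0808, limma). The second BTC probe set, 207326_at, had means of 204 ± 57.9 (SD, n = 3) with PBS, 121 ± 10.9 with BMP2, 145 ± 30.4 with DM and 98.1 ± 8.01 with both. Its arrays with both reagents lay below all others. It had -0.48 ± 0.41 in DM against PBS and -0.31 ± 0.41 in BMP2+DM against BMP2, opposite in sign to 241412_at. In the other comparisons the signs were the same, and neither probe set was called in any.

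EREG probe set 205767_at had 155, 76.9 and 127 with PBS, 119, 73.0 and 99.3 with BMP2, 156, 131 and 127 with DM, and 171, 103 and 113 with both. Again only the DM and BMP2 arrays did not overlap, and DM against BMP2 had 0.53 ± 0.48 (95% confidence interval -0.49 to 1.55, adjusted p = 0.594, limma). The second EREG probe set, 1569583_at, lay below the filter and was not tested singly. It had 29.3, 136 and 146 with DM, above all other arrays, which ran from 4.05 to 24.1. No neighbours differed beyond the threshold in the order BMP2, BMP2+DM, PBS, DM for BTC or BMP2, PBS, BMP2+DM, DM for EREG.

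**Figure D3:**
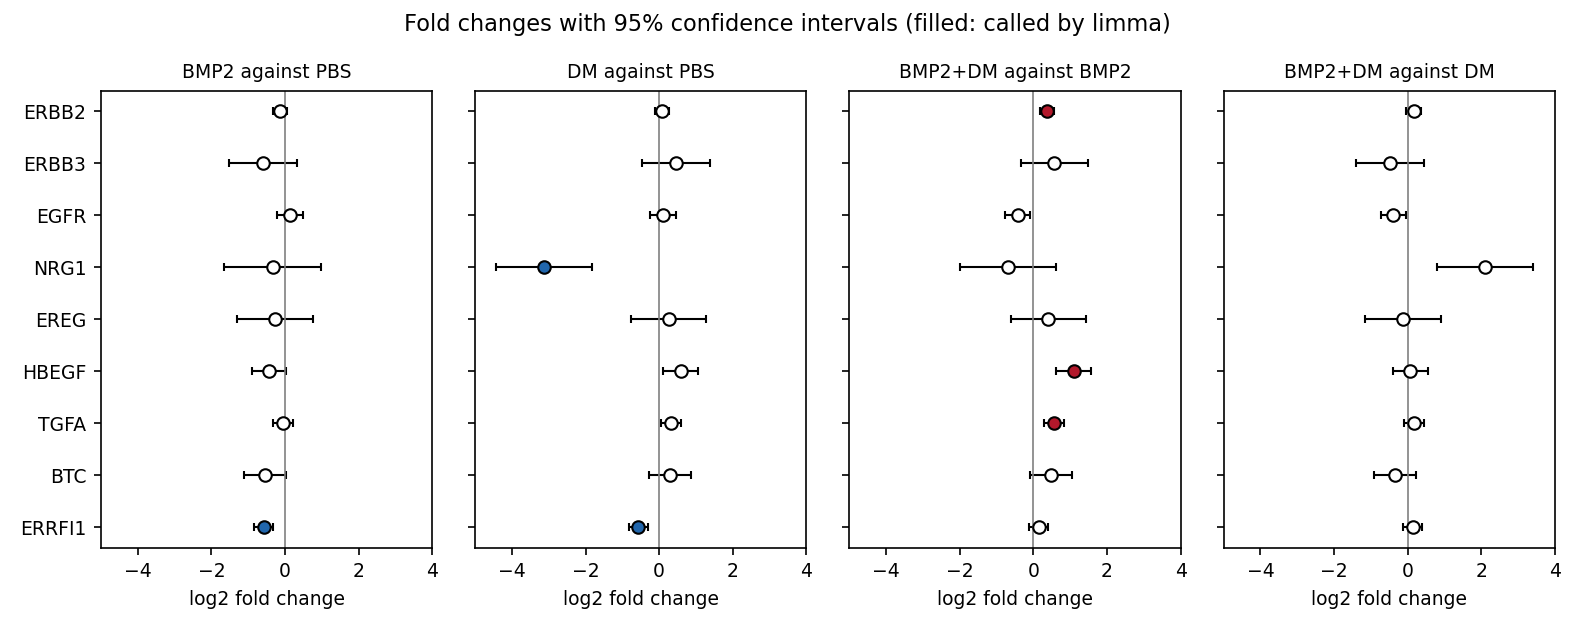
log2 fold change (horizontal axis) of the 9 genes in 4 comparisons, with 95% confidence intervals from limma; red and blue points were called higher and lower, white points were not called. HBEGF (1.09), TGFA (0.55) and ERBB2 (0.37) were called in BMP2+DM against BMP2, and ERRFI1 in BMP2 against PBS (-0.57) and DM against PBS (-0.56); the NRG1 mean with DM is below the filter.

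ERRFI1 encodes MIG6, which binds the kinase domains of EGFR and ERBB2 and inhibits them. Its only probe set, 224657_at, had 3706, 3463 and 4124 with PBS, 2268, 2665 and 2673 with BMP2, 2795, 2820.1 and 2078 with DM, and 2903, 2649 and 2856 with both. The 3 PBS arrays lay above the 9 treated ones, and the treated groups overlapped. ERRFI1 fell by 0.57 ± 0.12 on the log2 scale with BMP2 (1.49-fold, adjusted p = 0.0393, limma) and by 0.56 ± 0.12 with DM (1.48-fold, adjusted p = 0.0135). With both reagents it had -0.42 ± 0.12 against PBS (adjusted p = 0.0609), and the interaction was 0.71 ± 0.17 (unadjusted p = 0.000695, adjusted p = 0.2). DM against BMP2 had 0.01 ± 0.12, with a 95% confidence interval of -0.25 to 0.26. No neighbours in the order BMP2, DM, BMP2+DM, PBS differed beyond the threshold.

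The ERRFI1 call with BMP2 was lost in 16 of 24 alternatives, among them the omission of any 1 array of PBS, BMP2 or BMP2+DM and median centring (adjusted p = 0.0991, limma). Without BMP2 replicate 1, the lowest BMP2 array, it had -0.49 (adjusted p = 0.169), and the adjusted p ran from 0.0108 to 0.216. The call with DM was lost in 4: median centring (0.128), no intensity trend (0.0879), and the omission of DM replicate 3 (0.057) or PBS replicate 3 (0.0806). With both reagents against PBS ERRFI1 gained a call with the brightest 30% of probe sets (adjusted p = 0.0414), with only the compared groups (0.0265, or 0.0262 with the probe sets of all genes kept) and without DM replicate 3 (0.0218).

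Of the receptor and ligands beyond the members, NRG2 passed the filter, with group means from 111 to 134, and was not called in any comparison. ERBB4, EGF, NRG3 and NRG4 lay below the filter, with geometric mean signals of 66.0, 13.7, 6.06 and 18.6. EPGN was not analysed here.

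Genes that act on the release of the ligands, on the signal or on its end were counted beside the members. The lists mix genes that promote a step with genes that oppose it, so their counts give no direction of signalling. In BMP2+DM against BMP2, where 7.25% of all genes were called, 1 of 10 shedding genes rose, 1 of 21 turnover genes and negative regulators fell, 1 of 14 adaptor and ERK genes rose, 1 of 14 PI3K and AKT genes rose, and 0 of 14 other effectors were called by limma (4 at an unadjusted p under 0.05). Their median log2 changes were -0.02, -0.08, 0.01, -0.01 and 0.11. The called genes were TIMP1, a metalloprotease inhibitor, at 0.44 ± 0.10 (adjusted p = 0.0122), HSP90AA1, a chaperone of ERBB2, at -0.47 ± 0.11 (adjusted p = 0.0109), HRAS at 0.41 ± 0.10 (adjusted p = 0.016) and FOXO1, a transcription factor that AKT keeps out of the nucleus, at 0.92 ± 0.16 (adjusted p = 0.00206).

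In DM against PBS, where 3.57% of all genes were called, FOXO1 was the 1 gene called of these 5 lists, and it rose 1.63-fold from 640.4 ± 106 (SD, n = 3) to 1039 ± 111 (adjusted p = 0.0204, limma). In DM against BMP2, where 6.57% of all genes were called, FOXO1 rose 2.35-fold (adjusted p = 0.000106, limma). TIMP1, HRAS and HSP90AA1 were called there at 0.35 ± 0.10, 0.37 ± 0.10 and -0.36 ± 0.11. In BMP2+DM against PBS (4.09% of all genes) the only call was SHC1, an adaptor that links receptors to RAS, at 0.39 ± 0.08 (adjusted p = 0.0116, limma). None was called by limma in BMP2 against PBS, where 0.631% of all genes were (4 of the lists at an unadjusted p under 0.05). Nor was any in BMP2+DM against DM, where 0.0473% of all genes were (1 at that threshold). The sheddase genes ADAM10 and ADAM17 had signals of 10014 to 12246 and 1386 to 2065.

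**Figure D4:**
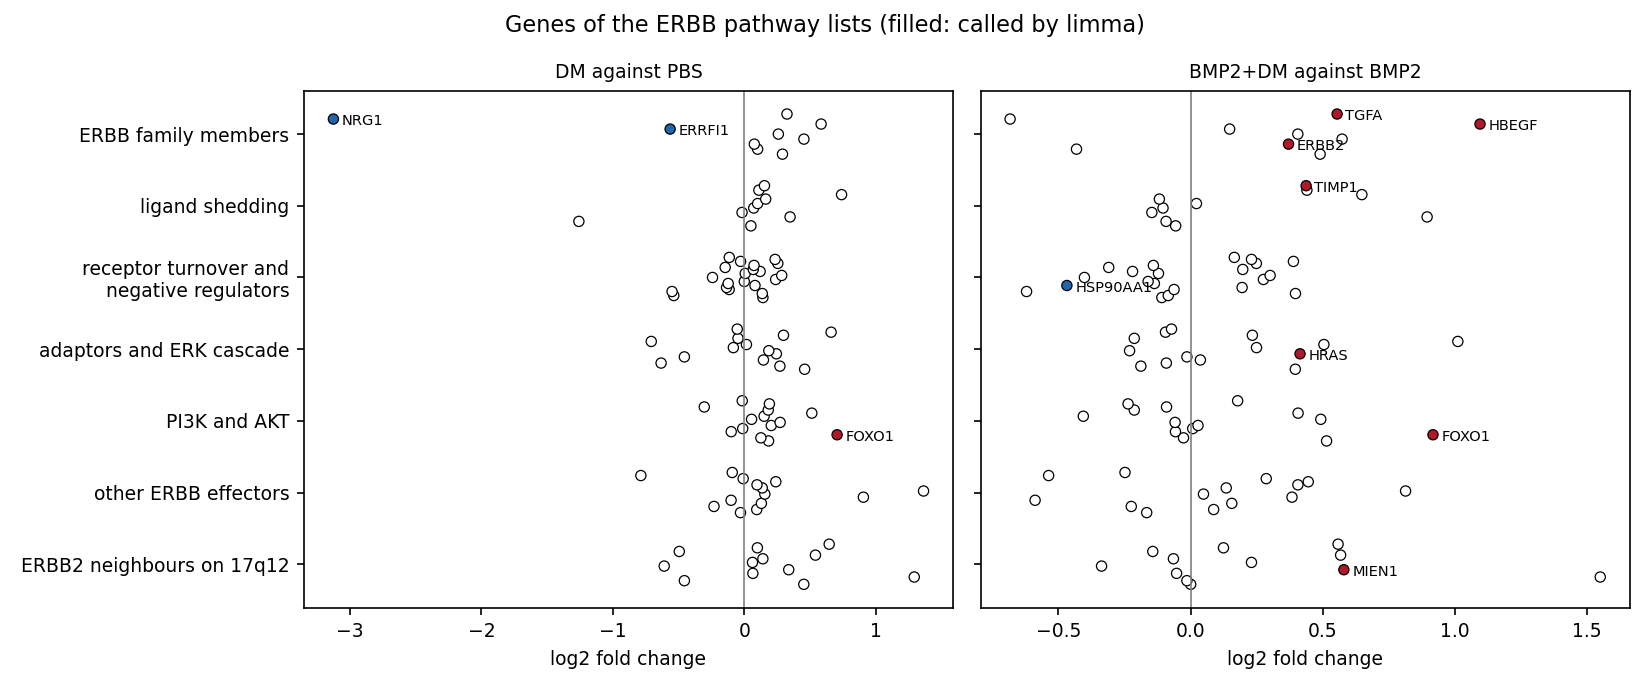
log2 fold change (horizontal axis) of the 9 members and of the tested genes of 6 lists in 2 comparisons, 1 point per gene; red and blue points were called higher and lower by limma and are named, white points were not called, and height within a row has no meaning. FOXO1 is the only called gene of the lists in DM against PBS, and TIMP1, HSP90AA1, HRAS, FOXO1 and MIEN1 are called in BMP2+DM against BMP2.

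The genes around ERBB2 on 17q12 can share its amplified segment. Of 12 tested, 1 was called in BMP2+DM against BMP2, beside 7.25% of all genes: MIEN1, which adjoins ERBB2 on one side. MIEN1 rose by 0.58 ± 0.11 (1.49-fold, adjusted p = 0.00237, limma), from 6299 ± 702 (SD, n = 3) to 9417 ± 1069.5. In BMP2+DM against PBS it was again the 1 call of the 12, beside 4.09% of all genes, at 0.53 ± 0.11 (adjusted p = 0.00701, limma). PGAP3, which adjoins ERBB2 on the other side, had -0.06 ± 0.16 in BMP2+DM against BMP2, and GRB7, the gene beyond MIEN1, had -0.01 ± 0.19. In DM against BMP2, 2 of the 12 were called higher and 1 lower, beside 6.57% of all genes called either way. MIEN1 and MED1 rose by 0.39 ± 0.11 and 0.67 ± 0.20, and PPP1R1B fell by 0.56 ± 0.16. The median of the 12 in BMP2+DM against BMP2 was 0.06.

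The genes whose log2 signal was most like that of a called member over the 12 arrays are given as a description, since the arrays share 4 groups. They were HS1BP3, RELB and DDOST for ERBB2 (Pearson r of 0.96, 0.96 and 0.94), PLPBP, MFSD6 and RAB3D for HBEGF (Pearson r of 0.96, 0.94 and 0.94) and BCAR3, PRKAB1 and NT5E for TGFA (Pearson r of 0.96, 0.94 and 0.93). For the members that fell they were DEPP1, P4HA1 and FAM162A for ERRFI1 (Pearson r of 0.94, 0.92 and 0.91) and RAB4B, CNOT11 and ARSJ for NRG1 (Pearson r of 0.94, 0.91 and 0.90).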

How the data were processed

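RNA of 12 SK-OV-3 cultures was measured on 12 Affymetrix arrays. The authors used MAS5, per the submitters' processing notes (version not given in the sources used here), and the deposited table holds 1 linear intensity per probe set and array. Trimmed means (2% off each end) ran from 495.8 to 496.1, so the scaling was kept; a change in total RNA would not show. Detection calls were not used.

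A probe table gave 41091 probe sets 1 symbol and 1801 several, and 11721 were not listed in it. Signals under 1 (396 values) were set to 1 before log2. The brightest probe set stood for a gene, and those above the median were tested, in 1 limma model (limma 3.58.1, R 4.3.3) of group means over all arrays with an intensity trend (8 residual and 9.24 prior degrees of freedom). Tests were 2-sided, with calls at an adjusted p under 0.05. Since 3 arrays against 3 allow no permutation p under 0.1, none was used. Single probe sets were tested in a fit on all 23284 above the filter. The code was tested on simulated data. The number of arrays limits the precision.

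Members and lists were chosen with earlier results of these data known. Genes named are the members, the remaining receptor and ligands, called genes of the lists (up to 4 with the smallest p each), and the 3 most like each called member. GRB7, PGAP3, ADAM10, ADAM17, KRT19 and CD24 were named after their values were seen. Alternatives were median centring and quantile normalization, an offset of 32 before log2, other filters (none, or the brightest 30%), the mean of probe sets or every probe set, no trend, robust variance, only the groups compared, a replicate block and each array left out.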

Additional observations from a re-analysis of the deposited data

How the results depend on the processing

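None of the member results reversed under an alternative with a call on either side. HBEGF in BMP2+DM against BMP2 kept its call in 23 of 24 alternatives, and ERRFI1 in BMP2 against PBS in 8. The members called in BMP2 against PBS went from 1 to 0 with every probe set, the mean of probe sets, median centring, no intensity trend, only the groups compared and a replicate block. For BMP2+DM against BMP2 the 3 became 0 with the mean of probe sets and 1 without a trend. For BMP2+DM against PBS the 1 became 2 with the brightest 30% of probe sets, and 0 with every probe set, the mean, median centring and no trend. For DM against BMP2 the 2 became 1 with the brightest 30% and with only the groups compared, 0 with the mean and 3 with median centring, where TGFA gained a call (adjusted p = 0.0493, limma); BTC gained one without BMP2 replicate 3 (0.0473). For DM against PBS the 2 became 1 with the brightest 30%, the mean, median centring, no trend and only the groups compared. Restricting the groups also changed the probe set of NRG1 in these last 2 comparisons; with the probe sets kept, an alternative added after seeing the data, the counts were 1 in DM against BMP2, 2 in DM against PBS and 0 in BMP2 against PBS. With 1 array left out the counts were 0 to 1, 1 to 3, 0 to 2, 1 to 2 and 0 to 2 in that order, and 0 to 0 for BMP2+DM against DM and the interaction. The brightest 30% kept 6 of the 9 genes; other causes were not tested. Same-numbered arrays did not deviate together (0 of 18 pairs with a correlation over 0.1). The labels do not say whether the numbers pair the cultures, and low correlations cannot settle it. The replicate block gave 0 members in BMP2 against PBS, where ERRFI1 had an adjusted p of 0.0744 by limma, 2 in DM against PBS, 3 in BMP2+DM against BMP2 and 1 in BMP2+DM against PBS. Ranges of calls over all genes leave out the fit on every probe set, which counts probe sets and not genes. The range was 12 to 99 (from 80) for BMP2 against PBS, 176 to 526 (from 453) for DM and 221 to 683 (from 519) for both. Against BMP2 it was 414 to 1045 (from 919) for both and 353 to 942 (from 833) for DM. For BMP2+DM set against DM it was 2 to 21 (from 6), and for the interaction 0 to 42 (from 15). Median centring moved the share of higher calls from 51.2% to 34% for BMP2 and 52.1% to 64.5% for DM against PBS, from 56.3% to 72.9% for both and 49.8% to 78.1% for DM against BMP2, from 83.3% to 66.7% for BMP2+DM against DM, and from 86.7% to 100% for the interaction. Dim genes are limited most: the standard error was 0.44 for ERBB3, 0.48 for EREG and 0.62 for NRG1, against 0.09 for ERBB2.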
